A study of Drosophila melanogaster with 15 samples.

Results

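The leucine-rich repeat-containing G protein-coupled receptors (LGRs) are a small family of peptide hormone receptors, and 4 of its Drosophila genes, Lgr1, Lgr3, Lgr4 and rickets (rk), are described here. They were matched by symbol among the 17559 genes counted in nuclei of the mushroom body (MB), and all 4 had enough counts to be tested in every comparison. Lgr1 was chosen by its measured values, because its level rises with training in both genotypes, so its training contrasts are given as a description and without a test. Lgr3, Lgr4 and rk were taken as its relatives.

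LGRs carry a large outer domain of leucine-rich repeats that binds the hormone, joined to a 7-transmembrane domain that couples to G proteins. Many of them, among them the vertebrate receptors for glycoprotein hormones, act through Gs, adenylyl cyclase, cAMP and protein kinase A (PKA). Lgr1 is the fly relative of the glycoprotein hormone receptors and is activated by the dimer of Gpa2 and Gpb5. The product of rk is the receptor for bursicon, a dimer of Burs and Pburs that drives tanning of the cuticle and wing expansion after eclosion. Lgr3 and Lgr4 resemble the vertebrate relaxin receptors. Lgr3 is the receptor for Ilp8, which couples tissue damage to developmental timing, and Ilp7 has been proposed as a ligand of Lgr4. The MB is a centre for learning in the insect brain, and cAMP made by the adenylyl cyclase rutabaga in its neurons, the Kenyon cells, is a classical part of memory formation.

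Nuclei tagged with the UAS-unc84::GFP nuclear envelope protein were captured from homogenised heads with anti-GFP beads, and their nuclear RNA was sequenced. Flies of every group carried the R14H06-Gal4 driver, the GFP tag and UAS-Dicer2, on a w* background. The trx-KD flies carried in addition the hairpin transgene P{GD4502}v37715 against trithorax (trx), a methyltransferase for histone H3 lysine 4, while the control genotype lists no hairpin. There were 4 libraries of naïve controls, 4 of trained controls, 3 of naïve trx-KD flies and 4 of trained trx-KD flies, each made from a pool of 50 to 60 heads. The labels call the treatments trained and naïve and give neither the training protocol nor the sex, the age or the time of collection, and no temporal control of the knockdown is listed. P-values measure the spread between these pools. Because each library is a bulk sample, fewer cells of a type and less RNA per cell cannot be told apart.

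Depth ranged from 14154045 to 45976562 gene counts per library (median 24250938). Levels are given as counts per 1000000 counts (CPM) after TMM scaling, with the SD over libraries, and differences as log2 fold changes with their standard error (SE) from edgeR's quasi-likelihood (QL) test, whose p was adjusted over all genes tested by the method of Benjamini and Hochberg. The targeted gene trx lay at 561 to 609 CPM in the 8 control libraries and at 499 to 550 CPM in the 7 trx-KD libraries, without overlap. Its log2 fold change was -0.11 in naïve flies (edgeR QL adjusted p = 0.304) and -0.16 in trained flies (edgeR QL adjusted p = 0.0744). Defining MB markers were present in all libraries, with eyeless (ey) at 351 to 478 CPM over the groups. Of the others, mub lay at 4711 to 7165 CPM, dac at 287 to 383 CPM and prt at 88.6 to 158 CPM. RNA of other cells was present too. The photoreceptor opsin ninaE lay at 4735 to 11130 CPM, the muscle myosin Mhc at 1158 to 2661 CPM and the glial factor repo at 27.9 to 44.4 CPM. The yolk protein gene Yp1 lay at 142 CPM in trx-KD trained replicate 4 and at no more than 1.13 CPM in every other library. The 8 fat body and haemolymph markers, Yp1 among them, summed to 3091 to 6788 CPM over the groups.

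The 4 genes are dispersed in the genome. In the BDGP6.54 annotation (coordinates of dm6), Lgr1 (FBgn0016650) lies on chromosome arm 3R from 17725777 to 17733207 on the plus strand, and Lgr3 (FBgn0039354) on the same arm and strand from 25665809 to 25677214. Lgr4 (FBgn0085440) lies on the minus strand of the X chromosome from 13161714 to 13189164, and rk (FBgn0003255) on the minus strand of 2L from 13982743 to 14001248. All are protein-coding genes with many exons, in 17 exon blocks for Lgr1, 11 for Lgr3, 18 for Lgr4 and 15 for rk, and with 3222, 3005, 2975 and 5386 exonic bases respectively. No other annotated gene overlaps Lgr1. Genes on the opposite strand overlap the exons of the others, with 143 bases shared by Lgr3 and CG4730, 868 bases by Lgr4 and CG12096, and 527 bases by rk and NimC2. A non-coding gene, lncRNA:CR45225, shares a further 893 bases with Lgr3 and had 0 counts in all libraries. Whether the reads were counted by strand is not given in the sources used here. How the overlaps bear on the counts of each receptor, Lgr3 with its 893 shared bases included, was not tested. CG12096 was as high as Lgr4 itself, with group means of 7.10 to 8.66 CPM. CG4730 lay at group means of 1.64 to 2.28 CPM and NimC2 at 0.294 to 0.427 CPM, far below Lgr3 and rk.

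To place the receptors among each other, CPM was divided by the exonic length in kb. In naïve controls Lgr3 was the highest of the LGRs at 10.1 ± 1.56 CPM per kb (SD, n = 4), followed by Lgr1 at 8.28 ± 0.391, rk at 5.14 ± 0.589 and Lgr4 at 2.13 ± 0.0566 CPM per kb. The libraries of Lgr3 and Lgr1 overlapped on this scale, and those of the other neighbours in the order did not. Trained controls had the order Lgr1 (13.9 ± 0.851 CPM per kb), Lgr3 (10.8 ± 0.968), rk (5.42 ± 0.345) and Lgr4 (2.11 ± 0.157). Among 39 peptide receptor genes in naïve controls, Lgr3 ranked 12, Lgr1 ranked 16, rk ranked 23 and Lgr4 ranked 33. The sex peptide receptor SPR was the highest of them at 29.4 CPM per kb. Among 9554 genes with enough counts and a known exonic length, these levels put Lgr3 at percentile 56, Lgr1 at 51, rk at 39.7 and Lgr4 at 23.4. Nuclear RNA holds intronic reads that these exonic lengths do not cover.

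**Figure D1:**
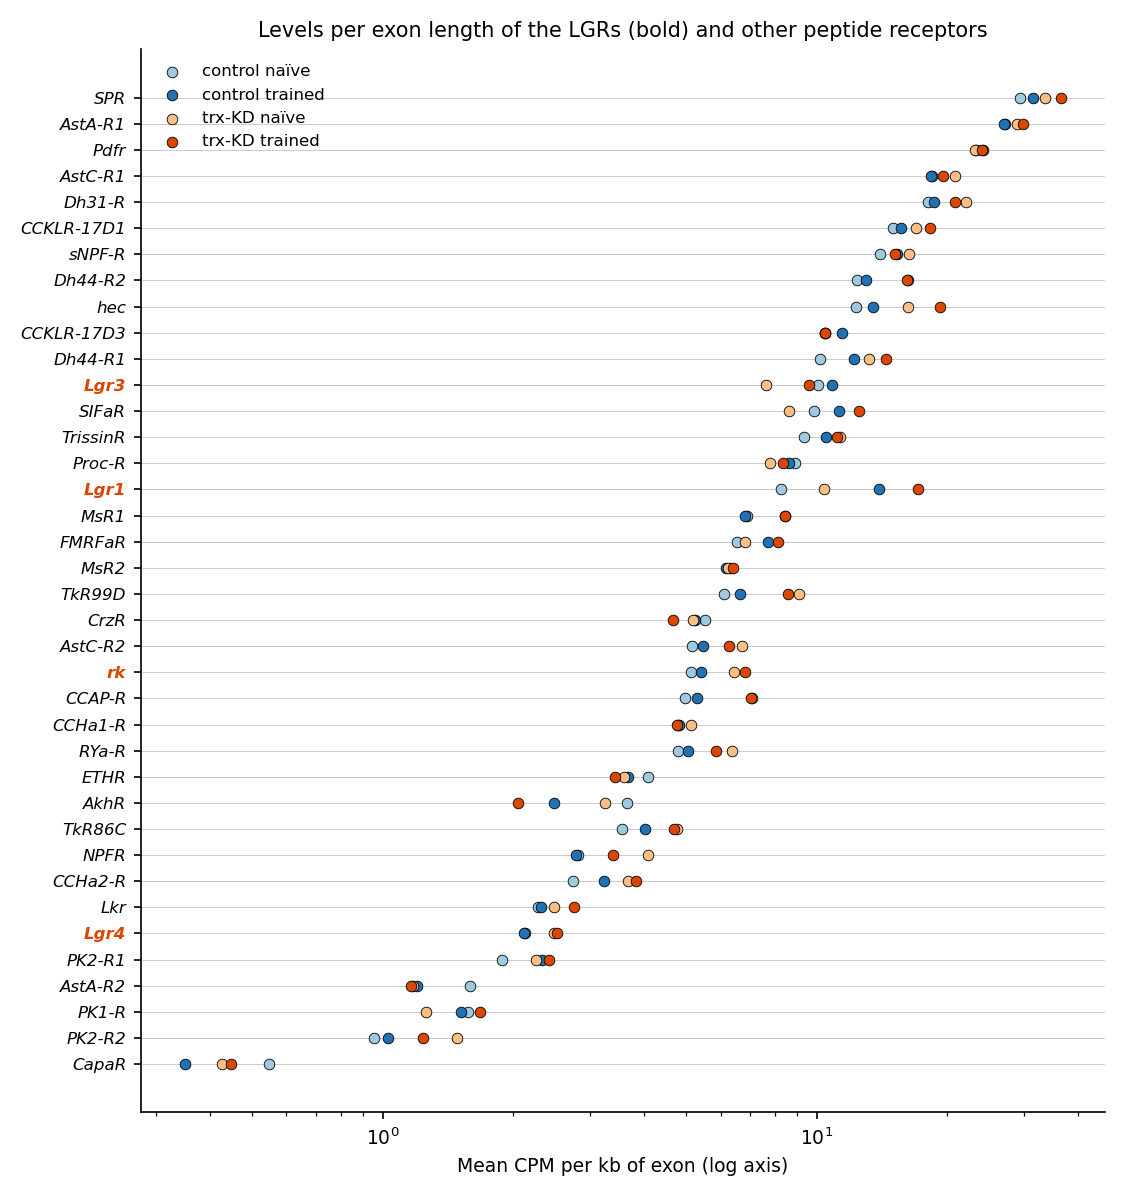
Mean CPM per kb of exonic length (log axis) of 38 peptide receptor genes in the 4 groups, one row per gene, ordered by naïve controls, with the LGR genes in bold. Lgr1 moves from 8.28 in naïve to 13.9 CPM per kb in trained controls, while the points of Lgr4 stay between 2.11 and 2.52 CPM per kb.

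The 4 groups had separate ranges of Lgr1. In naïve controls it was 25.3, 27.8, 27.7 and 25.9 CPM in replicates 1 to 4. In trained controls it was 48.0, 41.8, 46.3 and 43.7 CPM. Naïve trx-KD libraries had 34.3, 32.03 and 34.0 CPM, and trained trx-KD libraries had 53.9, 62.6, 50.9 and 52.7 CPM. From low to high the order was naïve control, naïve trx-KD, trained control and trained trx-KD. No library of any group lay within the range of another group. The gap between trained and naïve libraries goes with the choice of Lgr1. How many of all genes have such separate ranges was not counted, here and for the other receptors below. The highest library was trx-KD trained replicate 2. These values rest on 413 to 1566 counts per library.

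**Figure D2:**
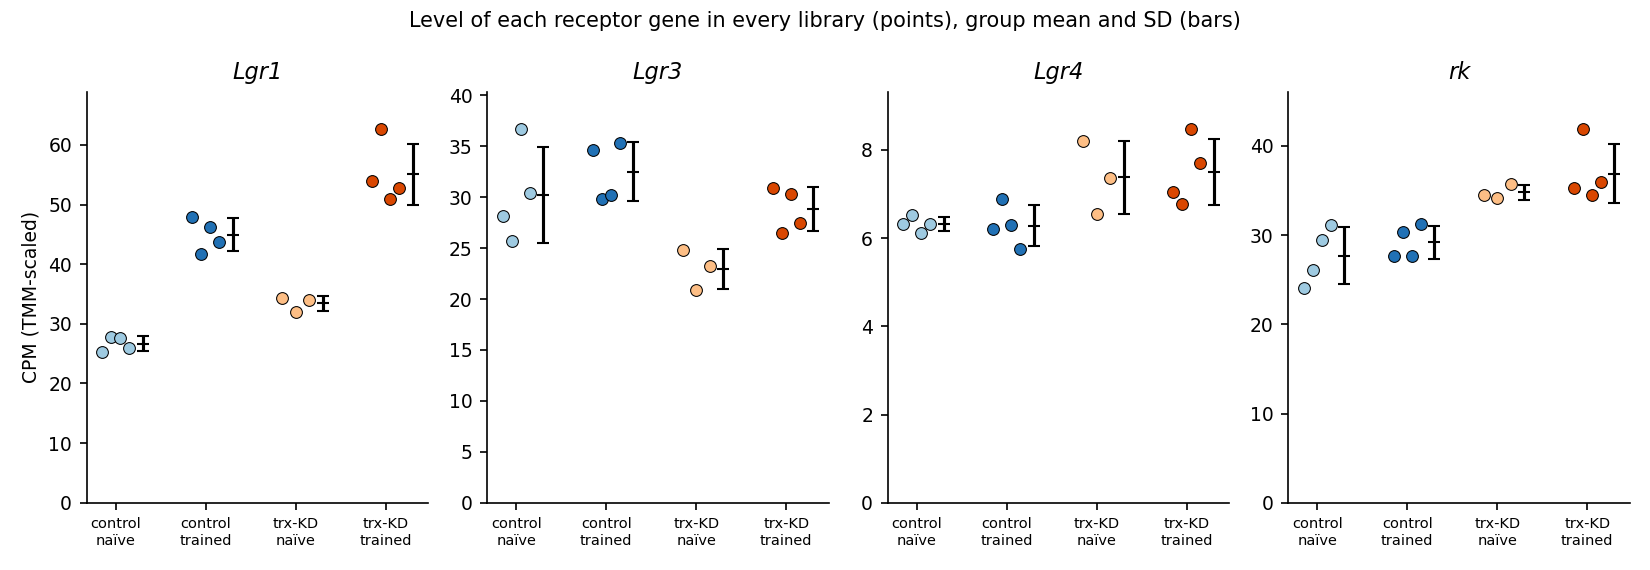
CPM of Lgr1, Lgr3, Lgr4 and rk in each library (points) with the mean and SD of each group (bars); the vertical axes start at 0 and differ between genes. Lgr1 has means of 26.7 CPM (naïve controls) up to 55.0 CPM (trained trx-KD flies) without overlap between groups, whereas Lgr4 stays between 5.75 and 8.47 CPM in all libraries.

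Trained controls were compared with naïve controls to find genes that differ with training. The mean level of Lgr1 went from 26.7 ± 1.26 to 44.9 ± 2.74 CPM (SD, n = 4 each), a 1.67-fold difference with a log2 fold change of 0.74 (SE 0.072). Ordered by log2 fold change, Lgr1 stood at place 69 of the 9255 genes tested. In trx-KD flies the mean went from 33.4 ± 1.23 (n = 3) to 55.0 ± 5.19 CPM (n = 4), a 1.65-fold difference with a log2 fold change of 0.72 (SE 0.090), at place 181 of 9370 genes. With each library left out in turn, the log2 fold change lay between 0.71 and 0.77 in controls and between 0.65 and 0.76 in trx-KD flies. Since Lgr1 was selected on these contrasts, these values are a description.

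The other receptors were not chosen by the training contrasts and were tested in them. None of Lgr3, Lgr4 and rk was called in trained against naïve controls, where 4.38% of all genes tested passed an adjusted p of 0.1 and were thus called (405 genes, 95 higher and 310 lower). None of these 3 was called in trx-KD flies either, where 0.534% of genes were called (50 of 9370, of which 64% were higher, or 43.2% when scaled by library size). A count of 0 of 3 is near both backgrounds.

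Levels of rk, the bursicon receptor, overlapped between trained and naïve flies in both genotypes. In controls rk was at 24.1, 26.1, 29.5 and 31.1 CPM in naïve and at 27.7, 30.3, 27.6 and 31.2 CPM in trained libraries. Its log2 fold change was 0.06 (SE 0.092, edgeR QL adjusted p = 0.836), and 2 standard errors around it span -0.12 to 0.25. In trx-KD flies it was 0.09 (SE 0.090, edgeR QL adjusted p = 0.737), with a span of -0.10 to 0.27.

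For Lgr3, the Ilp8 receptor, the naïve control libraries had 28.1, 25.7, 36.7 and 30.5 CPM and the trained ones 34.7, 29.8, 30.2 and 35.3 CPM, with overlap. The log2 fold change was 0.09 (SE 0.109, edgeR QL adjusted p = 0.800). In trx-KD flies Lgr3 was at 24.8, 20.8 and 23.3 CPM in naïve and at 30.9, 26.5, 30.3 and 27.5 CPM in trained libraries, without overlap. There the log2 fold change of 0.33 (SE 0.101) had an unadjusted p of 0.00890 and an edgeR QL adjusted p of 0.302, above the threshold. DESeq2 gave 0.34 with an adjusted p of 0.0715, which is under it. The adjusted p lay between 0.0715 and 0.819 over 14 alternatives.

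Lgr4 was the lowest LGR, with 97 to 375 counts per library. It was at 6.12 to 6.53 CPM in naïve and 5.75 to 6.88 CPM in trained controls, with means of 6.32 and 6.28 CPM and a log2 fold change of -0.02 (SE 0.106, edgeR QL adjusted p = 0.967). In trx-KD flies the naïve libraries had 8.21, 6.56 and 7.37 CPM and the trained ones 7.04, 6.78, 8.47 and 7.71 CPM, with a log2 fold change of 0.02 (SE 0.137, edgeR QL adjusted p = 0.964). The sign of both estimates depends on the scaling, since upper-quartile scaling gave 0.007 in controls and scaling by library size gave -0.04 in trx-KD flies. The spread of Lgr4 between libraries, a coefficient of variation of 2.66% to 11.2%, is to be set against the 6.81% to 8.81% that counting alone gives. It was below counting error in both control groups and above it in both trx-KD groups. In the other LGRs the spread exceeded counting error in 11 of 12 groups, the exception being rk in naïve trx-KD flies.

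Markers of cell types were measured beside these values, where 4.38% of all genes were called with training in controls and 0.534% in trx-KD flies. The 15 MB neuron markers had a median log2 fold change of 0.09 with training in controls, with 13 estimates above 0 and none called. In trx-KD flies the median was 0.18, with 15 of 15 above 0 and none called, and their summed level was 17650 to 18800 CPM in naïve and 19930 to 22410 CPM in trained libraries. The 10 photoreceptor markers had medians of -0.32 (2 called, both lower) and -0.28 (none called), with 0 of 10 estimates above 0 in each genotype. Antenna markers had medians of 0.91 (none of 7 called) and -0.79 (1 of 5 called, lower). Glia markers had medians of -0.09 and -0.01 with none of 7 called. Fat body and haemolymph markers had -0.19 and 0.50. Of these, 3 of 7 were called in controls (1 higher and 2 lower) and 0 of 8 in trx-KD flies. Their summed level was 4861 to 6788 CPM in naïve and 3757 to 4001 CPM in trained controls. In trx-KD flies it was 3993 to 4212 CPM in naïve and 3091 to 4887 CPM in trained libraries. Muscle markers had -0.10 and -0.004, with 1 of 7 (lower) and 0 of 7 called. The part of these shifts in the levels of the LGRs was not tested.

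The comparison of genotypes was not used to choose any of the receptors, so all 4 were tested in it. In naïve flies Lgr1 and rk were higher and Lgr3 lower in trx-KD than in control libraries, and Lgr4 did not pass the threshold. This is 3 of 4 receptors, where 14.2% of 9419 genes were called. In trained flies Lgr1 and rk were again higher, 2 of 4 receptors, where 13.9% of 9237 genes were called. Of all calls in trained flies, 51.2% were higher in trx-KD with TMM scaling and 26.8% when scaled by library size, which moved the median of all genes from -0.028 to -0.099. The naïve comparison and the trained comparison use different libraries, but each shares its libraries with the training contrasts. The genotype tests of Lgr1, and the counts that include it, are therefore not independent of its choice.

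Lgr1 was 1.26-fold higher in naïve trx-KD flies, at 33.4 ± 1.23 against 26.7 ± 1.26 CPM, with a log2 fold change of 0.33 (SE 0.077, edgeR QL adjusted p = 0.0266). In trained flies it was 1.22-fold higher, at 55.0 ± 5.19 against 44.9 ± 2.74 CPM, with a log2 fold change of 0.29 (SE 0.081, edgeR QL adjusted p = 0.0527). Every trx-KD library lay above every control library in both comparisons. The naïve call was lost without trx-KD naïve replicate 1 (adjusted p = 0.122) or 3 (0.104), within 0.00269 to 0.122 over 14 alternatives. The trained call was lost without control trained replicate 2, 3 or 4, without trx-KD trained replicate 4, the library with high Yp1 (adjusted p = 0.106 to 0.162), and with scaling by library size (0.22, adjusted p = 0.159), within 0.00760 to 0.162 over 15 alternatives.

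The bursicon receptor rk differed by a similar size. Its level was 34.8 ± 0.833 CPM in naïve trx-KD flies (34.4, 34.2 and 35.8 CPM) against 27.7 ± 3.17 CPM in naïve controls, a 1.26-fold difference with a log2 fold change of 0.33 (SE 0.098, edgeR QL adjusted p = 0.0656). In trained flies it was 36.9 ± 3.35 CPM (35.3, 41.8, 34.5 and 35.9 CPM) against 29.2 ± 1.86 CPM, also a 1.26-fold difference, with a log2 fold change of 0.34 (SE 0.085, edgeR QL adjusted p = 0.0390). The groups did not overlap in either comparison. The naïve call was lost without control naïve replicate 1 or 2 or without any of the 3 trx-KD naïve libraries (adjusted p = 0.134 to 0.182, within 0.00253 to 0.182 over 14 alternatives). The trained call was lost without control trained replicate 3 (0.114) and with scaling by library size (0.104), within 0.00338 to 0.114 over 15 alternatives.

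Lgr3 moved the other way. In naïve flies it fell from 30.2 ± 4.70 CPM in controls to 23.0 ± 1.99 CPM in trx-KD, without overlap between the libraries, with a log2 fold change of -0.40 (SE 0.122, edgeR QL adjusted p = 0.0711). This call was lost without control naïve replicate 1 or 3 or any of the 3 trx-KD naïve libraries (adjusted p = 0.111 to 0.263, within 0.0121 to 0.263 over 14 alternatives), and leaving out control naïve replicate 3, the highest library at 36.7 CPM, reduced the estimate to -0.29. In trained flies the means were 32.5 ± 2.91 and 28.8 ± 2.13 CPM, the ranges overlapped, and the log2 fold change of -0.17 (SE 0.090) did not pass the threshold (edgeR QL adjusted p = 0.256).

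Lgr4 had log2 fold changes of 0.23 in naïve flies (SE 0.124, edgeR QL adjusted p = 0.281) and 0.26 in trained flies (SE 0.120, edgeR QL adjusted p = 0.209). The naïve control and trx-KD libraries did not overlap, at 6.12 to 6.53 against 6.56 to 8.21 CPM, and the trained ones did. The overlapping gene CG12096 had log2 fold changes of 0.27 and 0.16 in the same comparisons, and neither passed the threshold (edgeR QL adjusted p = 0.320 and 0.566). How far reads of both genes are mixed was not tested.

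Markers were compared between genotypes in the same way, beside 14.2% of all genes called in naïve and 13.9% in trained flies. Of the 15 MB neuron markers 2 were called in naïve flies, both higher in trx-KD (list median 0.08 on the log2 scale), and 9 were called in trained flies, all higher, with a median of 0.20. Their summed level was 16880 to 18860 CPM in trained controls and 19930 to 22410 CPM in trained trx-KD libraries. Antenna markers were lower in trained trx-KD flies, with 6 of 7 called and a median of -1.94, against 0 of 7 called and a median of 0.21 in naïve flies. Fat body and haemolymph markers had 2 lower of 8 in naïve flies and 3 higher of 8 in trained flies, muscle markers 3 and 2 lower of 7, glia markers 2 and 1 lower of 7, and photoreceptor markers 0 and 1 lower of 10. The part of these markers in the differences of the LGRs was not tested.

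The difference of the training effect between the genotypes was fitted on all 15 libraries. It was -0.03 on the log2 scale for Lgr1 (SE 0.109), given without a test, and 2 standard errors around it span -0.25 to 0.18. For Lgr3 it was 0.23 (SE 0.153, edgeR QL adjusted p = 0.587), with a span of -0.08 to 0.53. For Lgr4 it was 0.03 (SE 0.162) and for rk 0.01 (SE 0.128), with edgeR QL adjusted p of 0.964 and 0.986, and both signs turned when scaled by library size. Of 9749 genes 0% were called in this comparison by edgeR, although 1055 had an unadjusted p under 0.05 and DESeq2 called 24. None of the 3 receptors tested passed the threshold for a difference between genotypes.

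**Figure D3:**
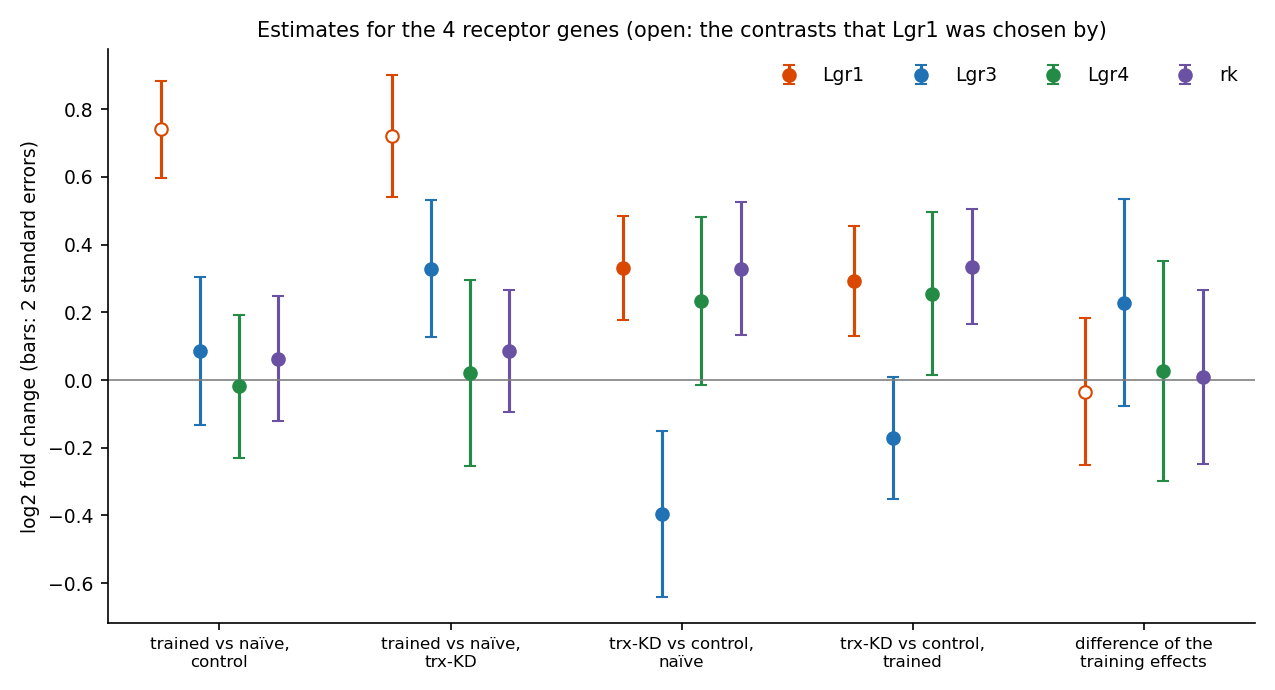
Log2 fold change of the 4 receptor genes in the 2 training contrasts, the 2 genotype contrasts and their difference, with bars of 2 standard errors; open points are the contrasts that Lgr1 was chosen by. Lgr1 and rk lie above 0 in both genotype contrasts (0.29 to 0.34), Lgr3 lies below 0 (-0.40 and -0.17), and only Lgr1 lies above 0.5 in the training contrasts.

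The ligands of these receptors were at low counts in the captured nuclei. Gpb5 was the highest, with 42 to 132 counts per library and a mean of 3.24 CPM. Gpa2, its partner in the hormone of Lgr1, had 3 to 37 counts and a mean of 0.613 CPM. Over all 15 libraries the bursicon subunits Burs and Pburs had 37 and 53 counts in total, Ilp7 had 235 and Ilp8 had 166. Burs was at 0 in control naïve replicate 1 and trx-KD trained replicate 2, where a count of 0 allows up to 0.165 and 0.180 CPM (3 counts, counting error only).

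None of the 6 ligands was called in any of the 5 comparisons, in each of which 3 or 4 of them had enough counts to be tested. Of all genes tested, 4.38% and 0.534% were called with training in controls and in trx-KD flies. The shares were 14.2% and 13.9% between genotypes in naïve and trained flies, and 0% for the difference of training effects. A count of 0 among so few ligands is near each of these shares. Gpb5 was at 2.497 ± 0.431 CPM in naïve controls, 3.08 ± 0.236 in trained controls, 3.20 ± 0.538 in naïve trx-KD and 4.18 ± 0.699 in trained trx-KD flies. Its log2 fold change was 0.31 with training in controls (SE 0.176, edgeR QL adjusted p = 0.508) and 0.44 between genotypes in trained flies (SE 0.166, edgeR QL adjusted p = 0.126). Gpa2 was at 0.902 ± 0.149 CPM in naïve and 0.421 ± 0.235 CPM in trained controls, with a log2 fold change of -1.07 (SE 0.407, edgeR QL adjusted p = 0.256). With training in trx-KD flies the Gpa2 estimate had the other sign, at 0.18 (SE 0.502, edgeR QL adjusted p = 0.907).

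The other peptide receptors form the wider family in which Lgr1 sits. Of 35 such genes 34 could be tested. With training in controls 1 was called, where 4.38% of all genes were. It was AkhR, the receptor of adipokinetic hormone, which fell from 11.6 ± 1.59 to 7.89 ± 1.25 CPM (log2 fold change -0.56, edgeR QL adjusted p = 0.0525). With training in trx-KD flies 1 was called, where 0.534% of all genes were. It was SIFaR, the receptor of the neuropeptide SIFamide, which rose from 43.5 ± 1.31 to 62.8 ± 4.72 CPM (log2 fold change 0.53, edgeR QL adjusted p = 0.0435). No gene of the list was called in controls without control trained replicate 1, 2 or 4 or control naïve replicate 2 or 3, nor in trx-KD flies without trx-KD trained replicate 4, without any of the 3 naïve libraries or with scaling by library size. The medians of the list were 0.05 and 0.001, beside 0.003 and -0.005 over all genes. Among 38 receptors ordered by log2 fold change, LGRs included, Lgr3, rk and Lgr4 stood at places 14, 18 and 28 in controls and at 4, 13 and 19 in trx-KD flies. Lgr1, which was chosen by these contrasts, stood at place 1 in both.

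**Figure D4:**
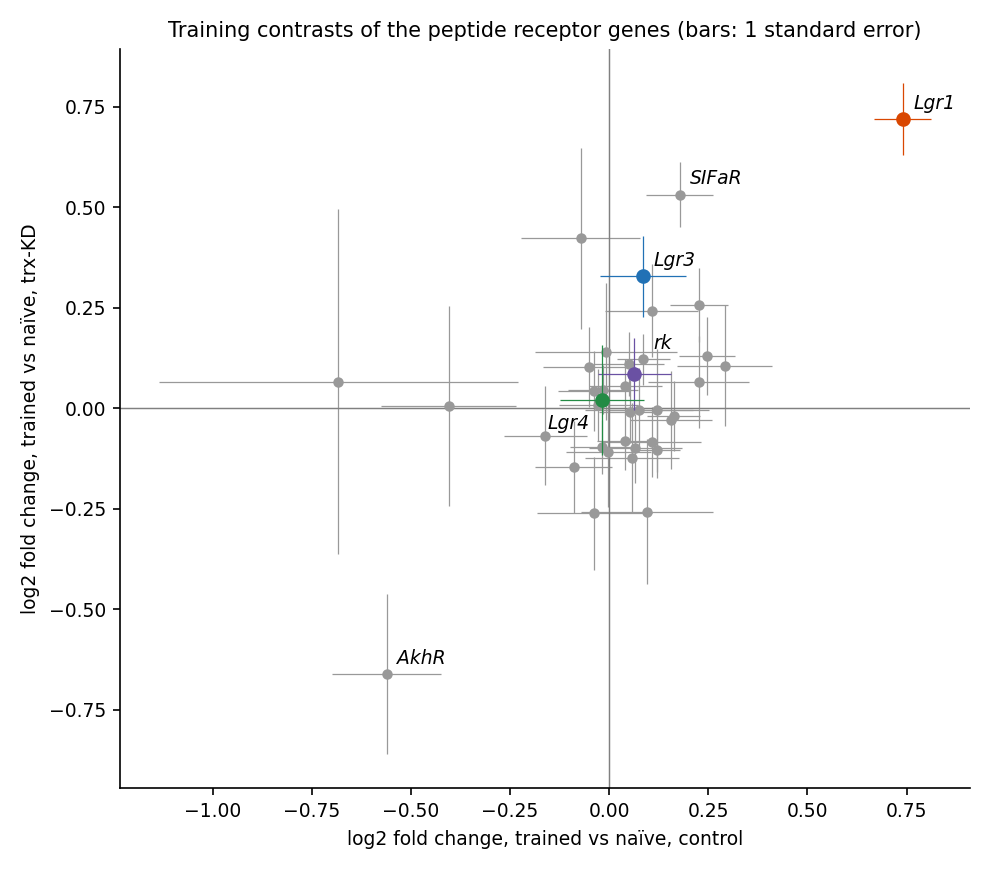
Log2 fold change with training in controls (horizontal axis) and in trx-KD flies (vertical axis) for 38 peptide receptor genes, with bars of 1 SE and the LGR genes in colour. Lgr1 lies at 0.74 and 0.72, SIFaR at 0.18 and 0.53 and AkhR at -0.56 and -0.66, while Lgr4 and rk lie within 0.1 of 0 on both axes.

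Between genotypes every called gene of the 34 other peptide receptors was higher in trx-KD, whereas Lgr3 was lower in naïve flies. In naïve flies 15 of 34 were called, where 14.2% of all genes were, with a median log2 fold change of 0.19 beside -0.021 over all genes. The largest were PK2-R2, a pyrokinin receptor (0.63, from 2.80 ± 0.453 to 4.35 ± 0.242 CPM), the tachykinin receptor TkR99D (0.58, from 17.6 ± 2.08 to 26.3 ± 0.713 CPM), the neuropeptide F receptor NPFR (0.53) and the receptor of crustacean cardioactive peptide, CCAP-R (0.51). In trained flies 6 of 34 were called, where 13.9% of all genes were, with a median of 0.16 beside -0.028, led by hec, a calcitonin-type receptor (0.52), CCAP-R (0.41), TkR99D (0.37) and the diuretic hormone receptor Dh44-R2 (0.32). Lgr1 stood at place 12 and rk at 13 of 38 receptors in naïve flies and at places 8 and 4 in trained flies, so neither led the receptors. Lgr3 stood at places 36 and 37. The counts depend on single libraries, with 2 called in naïve flies without trx-KD naïve replicate 2, and 0 in trained flies without control trained replicate 4. With scaling by library size 2 were called in trained flies.

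Components of the Gs, cAMP and PKA pathway, through which many LGRs act, were read from a list of 16 genes, all tested. The list also holds the transcription factors CrebA and CrebB. With training 1 of 16 was called in each genotype, beside 4.38% and 0.534% of all genes, and it was CrebA, a bZIP transcription factor of the secretory pathway, with log2 fold changes of 0.35 in controls (edgeR QL adjusted p = 0.0893) and 0.62 in trx-KD flies (edgeR QL adjusted p = 0.05002). CrebA was at 72.7 to 85.0 CPM in naïve and 81.4 to 112 CPM in trained controls, with overlap, and at 66.7 to 68.3 and 85.7 to 117 CPM in trx-KD flies, without. With 1 library left out, no gene of the list was called in 6 of 8 fits of controls (all but those without control trained replicate 1 or control naïve replicate 4) and in 4 of 7 fits of trx-KD flies (without trained replicate 4 or any naïve library). The median of the list was 0.04 in controls and 0.13 in trx-KD flies. In naïve flies, where 14.2% of all genes were called, 1 was higher in trx-KD, the adenylyl cyclase Ac3 (0.35). Another 4 were lower, the CREB factor CrebB (-0.26), the cyclase Ac78C (-0.26), the PKA catalytic subunit Pka-C3 (-0.26) and CrebA. The mean of CrebA was 78.7 CPM in naïve controls and 67.4 CPM in naïve trx-KD flies. In trained flies its means were 101 CPM in controls and 103 CPM in trx-KD. Without trx-KD naïve replicate 2 only 1 of the 16 was called.

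In trained flies 7 of these 16 were higher in trx-KD and 2 lower, where 13.9% of all genes were called in either direction. The G protein subunit Ggamma1 (0.34), the PKA regulatory subunit Pka-R2 (0.33) and the catalytic subunit Pka-C1 (0.33) were the largest increases, and Ac78C was lower (-0.33). With scaling by library size 5 of the 16 were called. The genes rut, dnc and Pka-C1 belong both to this list and to the MB markers. Of 4 receptor kinases and arrestins tested, which silence activated receptors, 1 was called in 1 comparison, Gprk1, higher in trained trx-KD flies (0.22). No gene of these lists was called for a difference of the training effect.

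A further list held surface proteins outside the LGR family, most of them with leucine-rich repeats, and 22 of its genes were tested. With training in controls 2 rose, atk (log2 fold change 0.79) and trn (0.34), and in trx-KD flies 1 rose, kek1 (0.31), beside 4.38% and 0.534% of all genes called. Between genotypes 5 were higher in naïve trx-KD flies, led by Fili (0.39), kek2 (0.37), Toll-6 (0.23) and Con (0.19), and 6 in trained trx-KD flies, led by kek4 (0.28), Fili (0.25), tutl (0.22) and Con (0.21), beside 14.2% and 13.9% of all genes called. Of these tutl encodes a protein of the immunoglobulin superfamily without leucine-rich repeats. None was lower. The medians were 0.06 and 0.05 with training and 0.14 and 0.10 between genotypes.

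Genes with a pattern like that of Lgr1 were sought by Pearson's r of log2 CPM over the 15 libraries among 6019 other genes. These r are a description, since all genes share the libraries and their depth. Lgr1 was also chosen for its rise with training, so genes nearest to it over all libraries share that rise by the choice. The 5 highest were Rgl, an exchange factor for the GTPase Ral (r = 0.961), the choline transporter gene ChT (0.960), CG4577 (0.949), CG44247 (0.935) and grp, which encodes the checkpoint kinase Chk1 (0.919). Within groups, after the mean of each group was subtracted, the 5 highest were the nucleoporin gene Nup98-96 (0.889), Syt14 of the synaptotagmins (0.881), the scaffold gene Magi (0.871), CG1416 (0.859) and Lpt (0.851). The lists share no gene.

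**Figure D5:**
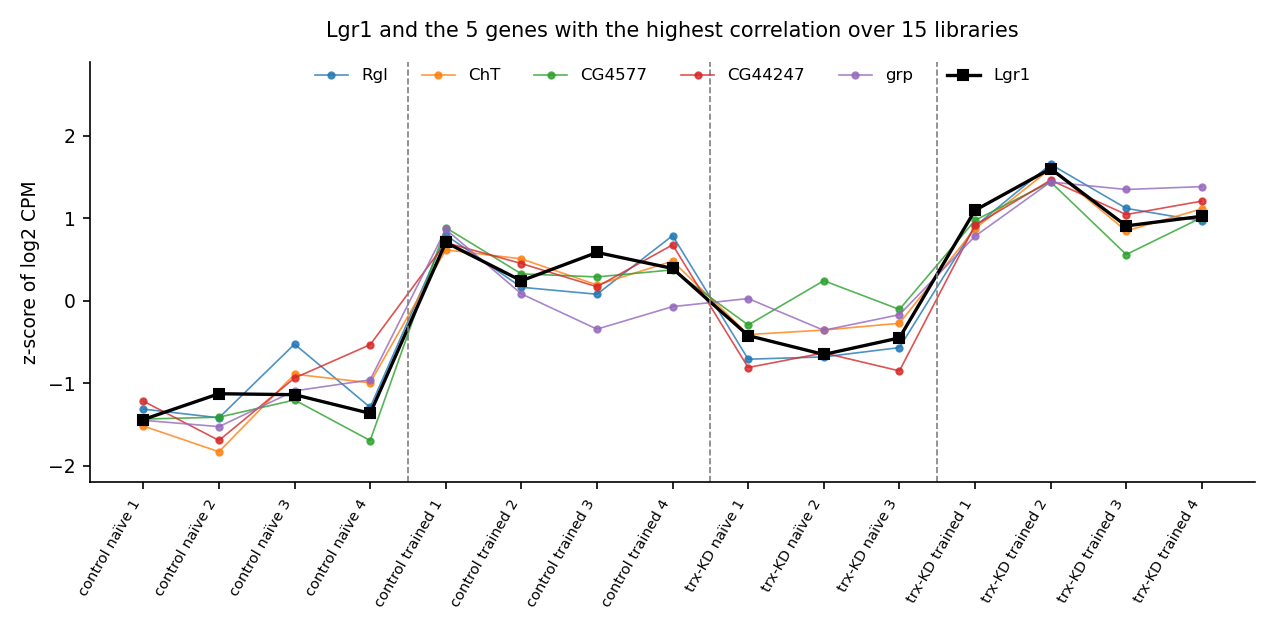
Standardised log2 CPM (z-score over 15 libraries, vertical axis) of Lgr1 (black squares) and the 5 genes with the highest r (0.919 to 0.961) in every library, with dashed lines between groups. All 6 lines are lowest in naïve controls and highest in trained trx-KD libraries, and Lgr1 has its highest value in trx-KD trained replicate 2. The shared rise with training follows from the choice of Lgr1 and of genes by r.

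The other receptors had other nearest genes. Each named gene is among the highest by r of 6019 or 6020 genes. How high the top r would be among unrelated genes was not tested, also for Lgr1. For Lgr3 these were Ran, mbf1 and AnxB11 between libraries (r of 0.827 to 0.857), and FBgn0015541, Zir and CG17816 within groups (0.746 to 0.781). For Lgr4 they were MFS17, FBgn0039959 and Hs6st (0.882 to 0.909), and CG7772, Tim17b and beat-Ib within groups (0.853 to 0.865). For rk they were CG15803, CG14015 and the dopamine receptor gene Dop1R1, which is also among the MB markers (0.924 to 0.930), and Su(var)2-10, CG12769 and Hs3st-B within groups (0.910 to 0.916). None of the 4 receptors was near another. The highest r between them was 0.569, for Lgr1 and rk, which fell to 0.309 within groups, and the lowest was -0.422, for Lgr3 and Lgr4, which was 0.002 within groups.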

How the data were processed

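The deposited tables give whole-number read counts per gene, which the authors made without normalization. The submitters' processing notes name STAR 2.5.3a, HTSeq 0.7.1 and dm6; the roles, annotation and strand setting are not given in the sources used here. Each table lists 17560 features, 1 of them the transgenic tag (0.437% to 0.681% of counts), which was left out. Symbols and exonic lengths came from BDGP6.54 by gene ID, with 17253 matched.

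Tools were R 4.3.3 with edgeR 4.0.16 (main test), DESeq2 1.42.0 (alternative) and limma 3.58.1. Low genes were removed by filterByExpr (minimum count 10, minimum total 15). TMM scaling was followed by the quasi-likelihood test of edgeR, fitted on the libraries compared. The difference of training effects used all 15. P-values were adjusted by Benjamini-Hochberg over all genes tested and called under 0.1. Log2 CPM used a prior count of 2. The fits were tested on simulated counts. Of set log2 changes of 0.5, 52.3% were called with training in controls and 28.7% in trx-KD flies. The shares were 60.6% between naïve genotypes, 50% between trained genotypes and 20.4% for the difference of training effects. False calls made up 8.97%, 13.2%, 12.3%, 11.2% and 3.57% of calls, in the same order. Changes of this size can thus be missed. The depth of 14154045 to 45976562 counts limits the precision of low genes. Replicates were compared in 21 pairs (r of 0.974 to 0.992; chi-square per degree of freedom at least 7.54), and none was a repeat.

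The receptors, the gene lists and the tests were chosen with earlier results of these data known. Genes are named if they are the 4 LGRs or their 6 ligands, if they are called members of the other pathway lists (up to 4 per list and comparison, by absolute log2 fold change), or if they are nearest by r (5 for Lgr1, 3 for the others, mean log2 CPM of at least 3), besides trx, markers and genes overlapping the LGRs. Alternatives were scaling by upper quartile or by library size, DESeq2, a threshold of 0.05, no filter, a replicate block, all 15 libraries in 1 fit and leaving out each library.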

Additional observations from a re-analysis of the deposited data

How the results depend on the processing

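Of 266 alternative values of the tested receptor comparisons, 225 kept their direction and their side of the threshold, 22 lost a call, 1 gained a call and 18 changed sign. The 50 alternative values of Lgr1 in the contrasts given without a test moved by less than the spread between replicates. All sign changes belong to estimates that did not pass the threshold. The level of each receptor moved by less than its SD under library-size scaling and DESeq2 size factors. With a threshold of 0.05, 3 calls were lost: Lgr3 (-0.396) and rk (0.329) in naïve flies and Lgr1 (0.292) in trained flies. With library-size scaling Lgr1 (0.222) and rk (0.265) lost their calls between trained genotypes, and Lgr4 turned to -0.038 with training in trx-KD flies. DESeq2 called Lgr3 (0.335) with training in trx-KD flies, and upper-quartile scaling turned Lgr4 to 0.007 with training in controls. For the difference of training effects, Lgr4 was -0.021 and rk -0.036 with library-size scaling, and rk was -0.003 without the filter. The cause was not tested.

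With each library left out in turn, Lgr4 lay at -0.064 to 0.021 and rk at -0.004 to 0.121 with training in controls, and Lgr4 at -0.056 to 0.106 with training in trx-KD flies. Between naïve genotypes Lgr1 lay at 0.302 to 0.359, Lgr3 at -0.465 to -0.288 and rk at 0.264 to 0.394, and between trained genotypes Lgr1 at 0.226 to 0.328 and rk at 0.271 to 0.373. For the difference of training effects Lgr4 lay at -0.044 to 0.119, rk at -0.047 to 0.07 and Lgr1 at -0.088 to 0.022.

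With a library left out, the genes called numbered 230 to 711 with training in controls, 4 to 160 with training in trx-KD flies, 330 to 2558 between naïve genotypes, 495 to 1808 between trained genotypes and 0 to 189 for the difference of training effects, against 405, 50, 1333, 1284 and 0 with all libraries. DESeq2 called 244 genes with training in trx-KD flies and 24 for the difference. No filter and all 15 libraries in 1 fit gave 91 and 125 with training in trx-KD flies, and a threshold of 0.05 gave 18 there, 703 between naïve and 721 between trained genotypes.

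Same-numbered libraries were little alike over all genes, with r between -0.119 and 0.141 and over 0.1 in 1 of 14 pairs. The main fits used no pairing. Whether part of the genes share a batch by replicate number was not tested. A replicate block gave 246, 8, 2712 and 1371 genes called in the training and genotype comparisons, in the same order. It changed no call of the 4 LGRs. Called genes among the other peptide receptors went from 1 to 0 with training in trx-KD flies and from 15 to 20 between naïve genotypes. The estimate of rk was -0.02 for the difference of training effects.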
